A study of Mus musculus with 16 samples.

Results

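The early response to loss of Hnf4a was measured in 8 of the 16 RNA libraries of a study of mouse jejunal organoids, chosen by their labels: 4 libraries labelled 4OHT at day 2 and 4 labelled DMSO at day 2. Organoids are epithelial cultures that grow from intestinal crypts without stroma. Both groups had the strain background C57BL/6 and the genotype Villin-CreERT2; Hnf4aflox/flox. CreERT2 is a recombinase that acts only after binding hydroxytamoxifen (4OHT), and the Villin promoter drives it in the intestinal epithelium. The control organoids thus carried the recombinase and the floxed alleles too. No 4OHT library lacked the floxed alleles. Effects of 4OHT itself or of the active recombinase therefore cannot be told apart from those of Hnf4a loss, here or below. The 4OHT group received 0.5 µM 4OHT for 24 h and was then split, and the controls received the solvent DMSO. The labels' protocol describes a harvest at day 4 and gives no separate description of day 2, and it does not say how many animals or cultures the replicates came from. Any p-value below therefore refers to the variation among libraries, and that variation may be only technical. The other 8 libraries are the same groups at day 4 and are used here only to show where day 2 differs.

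HNF4A is a nuclear receptor that binds DNA as a homodimer and switches on genes of absorption and metabolism in liver, intestine and kidney. In the intestine it works beside its paralog HNF4G, and both occupy many enhancers of enterocyte genes. Enterocytes, the absorptive cells, arise from crypt stem cells and share the epithelium with goblet, Paneth, enteroendocrine and tuft cells.

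The 8 libraries held 63.8 M to 93.3 M counts, and the top 10 genes of a library made up 5.05% to 5.68% of its total. Levels below are counts scaled to library size (CPM) with the SD over 4 libraries, or log2 fold changes of 4OHT over DMSO with their standard error (SE). In a principal component analysis the first component held 88.7% of the variance and separated the groups without overlap. Of 15897 genes that passed the filter on low counts, 2681 (16.9%) rose and 2269 (14.3%) fell by edgeR's quasi-likelihood test with an adjusted p below 0.05, or 31.1% in either direction. Those shares are the background for every count below, but they depended on level. Below a mean of 1 CPM 9.53% rose and 6.42% fell. In the bands above 1 CPM 17.8% to 21.2% rose and 14.3% to 19.8% fell. The background was not matched to the level of any list. The groups did not overlap for 5103 genes (32.1%). The median log2 fold change over all tested genes was -0.0027, while among called genes it was 0.39 for rises and -0.31 for falls, so most called changes were small.

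The gene the recombinase targets was read first. Hnf4a (ENSMUSG00000017950, chr2:163506808-163572910, plus strand, GRCm38) stood at 980, 1020, 1037 and 971 CPM in the DMSO libraries. In the 4OHT libraries it stood at 514, 528, 501 and 474 CPM. Its mean fell from 1002 ± 31.6 to 504 ± 22.9 CPM, a log2 fold change of -0.99 ± 0.05 (edgeR adjusted p = 8.25e-08). About 50.3% of the control level remained. The labels do not name the floxed exon, and counts per gene include reads from any exon that stays, so this fall does not give the share of recombined alleles. In bulk RNA, fewer cells of a type and less RNA per cell cannot be told apart, here or in any result below. The paralog Hnf4g had 195, 204, 270 and 220 CPM in DMSO and 286, 268, 239 and 233 CPM in 4OHT, and the groups overlapped. The log2 fold change of Hnf4g, 0.21 ± 0.10, did not pass the test (edgeR adjusted p = 0.131), but without DMSO replicate 3 it was 0.31 and passed (edgeR adjusted p = 0.0107). The neighbour on the 5′ side, R3hdml, rose from 6.03 ± 0.44 to 8.92 ± 0.318 CPM. The antisense gene Hnf4aos lies under 1 CPM and overlaps Hnf4a. Without a stated strand setting its reads cannot be told from those of Hnf4a.

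Large changes were more often rises than falls, and in both directions many lay at low levels. By the same test 435 genes (2.74%) rose at least 2-fold and 119 (0.749%) fell at least 2-fold. Below a mean of 1 CPM over both groups, 199 genes rose and 65 fell by that much. Between 1 and 4 CPM 90 rose and 23 fell. Between 4 and 16 CPM the counts were 81 and 18, and between 16 and 64 CPM they were 37 and 10. With genes required to reach at least 1 CPM in 4 libraries, 249 genes rose and 60 fell at least 2-fold, since that filter removes the lowest genes. Genes that rose were longer: their median exonic length was 4795 bases and their median span 31.7 kb, against 3266 bases and 16.2 kb for genes that fell and 3594 bases and 15.6 kb for genes not called. Whether length plays a part in the calls was not tested.

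**Figure D1:**
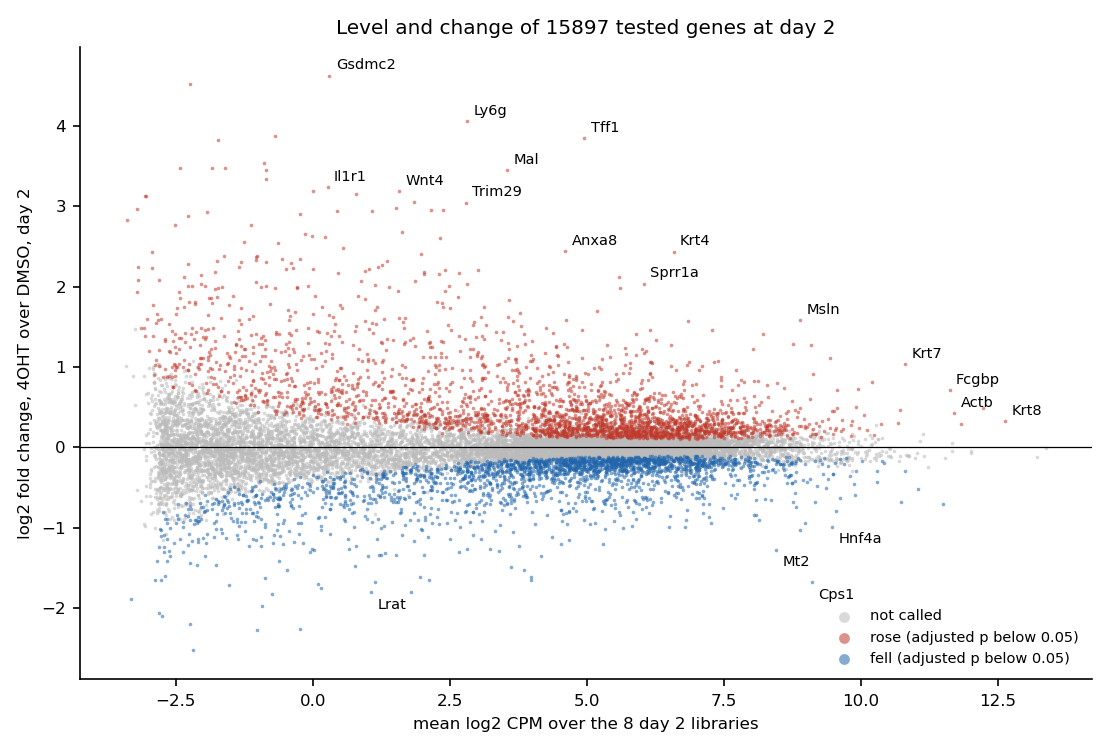
Each point is a tested gene, with its mean log2 CPM over the 8 day 2 libraries on the x axis and its log2 fold change of 4OHT over DMSO on the y axis. Red points rose and blue points fell with an adjusted p below 0.05. Rises reach 4.62 (Gsdmc2), and large changes in both directions crowd at low levels. Above a mean log2 CPM of 8 the largest falls are those of Cps1 (-1.68), Mt2 (-1.27) and Mt1 (-1.03).

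The 12 largest rises at a mean log2 CPM of at least 3 ran from 3.84 down to 1.68 on the log2 scale. They were the secreted or surface protein genes Tff1, Ly6d and Psca, the membrane genes Mal, Cav2 and Aqp3, the cytoskeletal or envelope genes Krt4, Sprr1a, Mtcl1 and Zfp185, the annexin gene Anxa8 and the fucosyltransferase gene Fut2. Tff1 encodes a trefoil peptide of gastric surface mucus. It had 8.61, 7.84, 7.27 and 9.15 CPM in DMSO and 102, 124, 136 and 111 CPM in 4OHT, a 14.4-fold rise (log2 3.84 ± 0.10, edgeR adjusted p = 1.68e-09). Mal, a membrane raft protein of apical transport, had 4.00, 3.23, 3.28 and 3.64 CPM in DMSO and 35.3, 34.8, 44.0 and 40.1 CPM in 4OHT (log2 3.45 ± 0.10). Every 4OHT library lay far above every DMSO library for both genes. Krt4, a keratin of stratified epithelia, rose from 41.7 ± 5.04 to 225 ± 39.5 CPM. The cornified envelope precursor Sprr1a rose from 32.7 ± 1.4 to 134 ± 13.1 CPM, and the annexin Anxa8 rose from 10.5 ± 1.06 to 57.2 ± 6.02 CPM. Aqp3, a water and glycerol channel, rose from 6.31 ± 0.889 to 22.5 ± 1.41 CPM.

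Below that level the largest rises were in genes nearly silent in control organoids. Gsdmc2, a gasdermin, had 0.177, 0.329, 0.256 and 0.189 CPM in DMSO and 6.90, 5.65, 6.17 and 5.20 CPM in 4OHT (log2 4.62 ± 0.17, edgeR adjusted p = 1.11e-08). Ly6g, a member of the GPI-anchored Ly6 family known as a neutrophil surface marker, went from 1.73 ± 0.249 to 28.7 ± 4.44 CPM. Il1r1, the signalling receptor for interleukin-1, had 0.353, 0.318, 0.476 and 0.391 CPM in DMSO and 3.16, 2.83, 3.97 and 4.53 CPM in 4OHT (log2 3.24 ± 0.19). The Wnt ligand gene Wnt4 had 1.06, 0.987, 0.848 and 1.02 CPM in DMSO and 8.05, 7.52, 9.48 and 10.5 CPM in 4OHT (log2 3.19 ± 0.13). Aldh3a1, an aldehyde dehydrogenase abundant in cornea and stomach, rose from 0.328 ± 0.0968 to 2.96 ± 0.498 CPM. Trim29, a tripartite motif protein, was among the 5 rises with the smallest p and went from 2.41 ± 0.236 to 19.9 ± 1.63 CPM. All of these genes were ranked only among genes whose groups did not overlap, so their lack of overlap is no separate result.

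The largest falls above a mean log2 CPM of 3 included Cps1, Acta1, Fbp1, Msi1, Slc1a1, Lct, Mt2, Enpp7, Dnase1, Adck3 and Agmat, from -1.68 to -1.20. Cps1, the mitochondrial enzyme that makes carbamoyl phosphate for urea and citrulline synthesis, had 943, 958, 1074 and 1000 CPM in DMSO. It had 332, 333, 302 and 275 CPM in 4OHT (log2 -1.68 ± 0.07, edgeR adjusted p = 2.04e-08). That fall exceeds the fall of Hnf4a itself. The glutamate transporter Slc1a1 fell from 28.8 ± 1.55 to 11.2 ± 1.02 CPM. The RNA-binding protein Msi1, used as a crypt progenitor marker, had 22.5, 24.4, 23.0 and 28.9 CPM in DMSO and 8.04, 7.59, 9.82 and 8.78 CPM in 4OHT (log2 -1.53 ± 0.10). Fbp1, an enzyme of gluconeogenesis, fell from 28.2 ± 8.63 to 9.19 ± 1.61 CPM. Enpp7, the alkaline sphingomyelinase of the brush border, fell from 14.9 ± 3.6 to 6.2 ± 1.78 CPM, and lactase (Lct) fell from 16.7 ± 3.72 to 6.8 ± 1.28 CPM. At lower levels the leading falls were Lrat, Vwa2, Mt4, Cyp2e1 and Rassf5, from -1.81 to -1.67. No fall in this group approached the size of the leading rises.

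**Figure D2:**
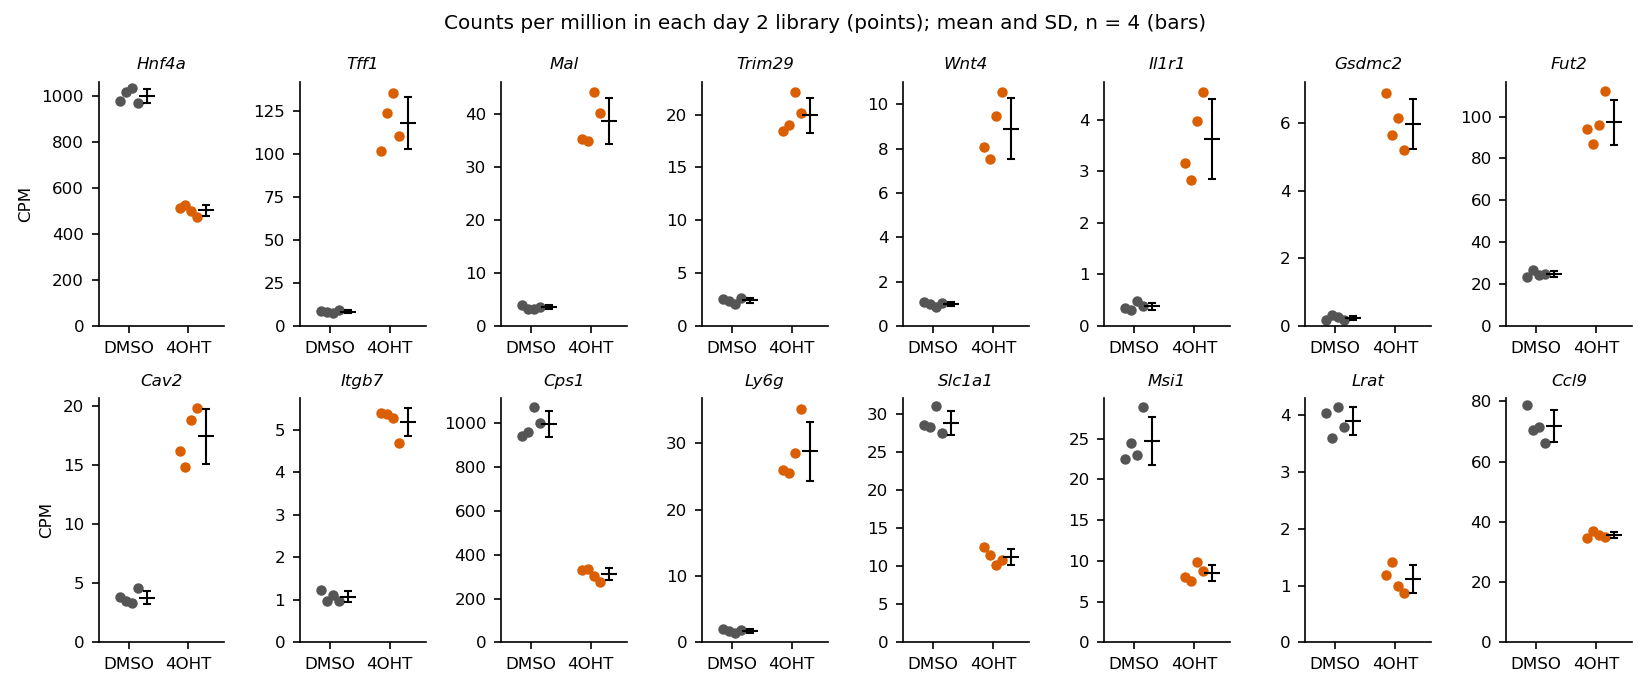
Points are the CPM of each day 2 library for 16 genes (linear axis from 0), DMSO in grey and 4OHT in orange, and the bars beside them are the mean and SD of 4 libraries. In each of the 16 panels all 4OHT libraries lie on the same side of all DMSO libraries, as for Tff1 (102 to 136 against 7.27 to 9.15 CPM) and Cps1 (275 to 333 against 943 to 1074 CPM). All genes but Itgb7 came from ranks that admitted only genes without overlap of the groups.

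In counts, not corrected for gene length, the largest gains were in Krt19, Fcgbp, Krt8, Krt7, Actb, Lgals4, Ccnd2 and Msln. The keratin genes Krt19, Krt8 and Krt7 rose from 4088 ± 311 to 5717 ± 196, from 5687 ± 277 to 7121 ± 231 and from 1259 ± 72.3 to 2581 ± 149 CPM. Fcgbp, a mucus protein of goblet cells, rose from 2477 ± 161 to 4051 ± 620 CPM. Cytoplasmic actin (Actb) rose from 2879 ± 57 to 3866 ± 116 CPM, the galectin Lgals4 from 3305 ± 239 to 4029 ± 184 CPM, the D-type cyclin Ccnd2 from 896 ± 96.4 to 1576 ± 98 CPM and the mesothelin gene Msln from 276 ± 19.5 to 827 ± 51.8 CPM. The largest losses were in metabolic genes and the antibody transporter Pigr, which fell from 2161 ± 175 to 1343 ± 159 CPM. The mitochondrial aldehyde dehydrogenase Aldh1b1 fell from 986 ± 81.9 to 568 ± 68.6 CPM, the triokinase Tkfc from 1178 ± 194 to 781 ± 116 CPM and the glutathione transferase Gstm1 from 1461 ± 71.6 to 1084 ± 171 CPM. Sucrase-isomaltase (Sis) fell from 2558 ± 443 to 1781 ± 321 CPM (edgeR adjusted p = 0.0124). Without DMSO replicate 1 its adjusted p by edgeR was 0.0755.

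Promoter sequences are shown for genes that fell because HNF4A acts by binding DNA. The motif CAAAGTNCA, an HNF4-type half-site repeat, was searched on both strands in the 250 bases before each start site, from the RefSeq promoter table of build GRCm38.p6. No other motif was searched. It was present in 379 of 27025 genes of that table (1.40%) and in 1.19% of its 32851 promoters. Among 10942 tested genes with a promoter there, 13 of 361 that fell at least 1.5-fold held it (3.60%), against 9 of 620 that rose at least 1.5-fold (1.45%) and 94 of 7196 not called (1.31%). Over falls of any size the share was 30 of 1726 (1.74%). These shares are a description with no test. The 13 include the neighbouring family members Cyp2c67, Cyp2c68 and Cyp2c70. The windows of Cyp2c67 and Cyp2c68 are nearly the same, so the matches are not all independent. A match is not a binding site, and 348 of the 361 genes had no match in this window. Of the 13 genes with a match, 6 are printed, chosen after their values were seen. They are on the strand of the gene, 5′ to 3′, and the capitals mark the motif. The windows are chr19:40187296-40187396 for Cyp2c70, a bile acid hydroxylase, chr11:83578637-83578737 for the chemokine gene Ccl9, chr17:12507843-12507943 for the organic cation transporter gene Slc22a3, chr15:82794249-82794349 for the cytochrome gene Cyp2d26, chr19:39741124-39741224 for Cyp2c68 and chr19:10604393-10604493 for Tkfc.
Cyp2c70: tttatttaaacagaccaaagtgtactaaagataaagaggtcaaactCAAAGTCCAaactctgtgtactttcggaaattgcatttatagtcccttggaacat
Ccl9: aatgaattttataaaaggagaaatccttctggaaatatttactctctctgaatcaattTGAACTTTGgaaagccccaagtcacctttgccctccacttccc
Slc22a3: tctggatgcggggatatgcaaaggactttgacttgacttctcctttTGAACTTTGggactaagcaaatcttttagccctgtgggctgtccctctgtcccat
Cyp2d26: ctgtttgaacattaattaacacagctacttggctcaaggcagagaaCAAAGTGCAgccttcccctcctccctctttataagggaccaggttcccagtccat
Cyp2c68: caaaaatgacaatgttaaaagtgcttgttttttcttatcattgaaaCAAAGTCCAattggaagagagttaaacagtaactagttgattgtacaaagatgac
Tkfc: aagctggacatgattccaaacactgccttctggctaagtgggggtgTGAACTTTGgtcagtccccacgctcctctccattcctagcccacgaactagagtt

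The distance from the match to the start site was 55 bases for Cyp2c70, 34 for Ccl9, 184 for Slc22a3, 49 for Cyp2d26, 68 for Cyp2c68 and 180 for Tkfc. Ccl9 had 78.9, 70.5, 71.6 and 66.1 CPM in DMSO and 34.8, 37.0, 35.8 and 35.0 CPM in 4OHT (log2 -1.01 ± 0.05, edgeR adjusted p = 1.72e-07). Slc22a3 fell from 3.32 ± 0.0701 to 1.65 ± 0.0923 CPM, and Cyp2d26 fell from 95.1 ± 15.2 to 59.1 ± 11.1 CPM. Cyp2c70 fell from 0.592 ± 0.131 to 0.181 ± 0.0693 CPM, a level at which few reads carry the value.

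The members of 25 lists of genes were then counted, each beside the background of 16.9% risen and 14.3% fallen genes. The list of caveolae and uroplakin genes stood highest. Caveolae are membrane pits built by caveolins and cavins, and uroplakins form the plaques of the bladder surface. Of 18 tested members 16 rose and none fell, with a median log2 fold change of 0.95. Cav2 had 3.81, 3.47, 3.30 and 4.57 CPM in DMSO and 16.2, 14.8, 18.8 and 19.8 CPM in 4OHT (log2 2.20 ± 0.12). Ptrf, the cavin that coats caveolae, rose from 14.2 ± 1.9 to 42.7 ± 5.51 CPM, and Ehd2, an ATPase at the caveolar neck, from 2.33 ± 0.186 to 10.4 ± 0.972 CPM. The uroplakin genes Upk1b and Upk3b rose from 5.29 ± 0.345 to 15.1 ± 1.58 and from 1.68 ± 0.261 to 3.85 ± 1.12 CPM. The 2 members that did not pass were Plp2 and Upk3a, and Plp2 was called as fallen (log2 -0.16) when DMSO replicate 4 was left out.

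Genes of cell shape and adhesion rose more often than they fell. Of 59 genes of the actin cytoskeleton and its small GTPases, 30 rose and 2 fell (median 0.19). The filamin gene Flna, which crosslinks actin, rose from 92.7 ± 13.2 to 159 ± 24.2 CPM. The actin capping gene Capg rose from 35.2 ± 0.657 to 78.8 ± 3.73 CPM and the talin gene Tln2, which links integrins to actin, from 53.9 ± 5.86 to 98.8 ± 6.92 CPM. One of the 2 falls was Acta1, the skeletal muscle actin, which had 30.9, 27.4, 21.7 and 31.9 CPM in DMSO and 9.18, 8.70, 9.49 and 8.39 CPM in 4OHT. Among exchange factors and motors of this system, grouped by symbol after the data were seen and so with no test, 12 of 21 Arhgef, 6 of 10 Dock and 11 of 20 Myo genes rose.

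Integrins, laminins and other matrix genes split by molecule. Of 33 tested, 16 rose and 5 fell (median 0.20), and the falls numbered 3 without DMSO replicate 2. The alpha and beta chains of the hemidesmosome laminin rose: Lama3 from 2.76 ± 0.252 to 6.82 ± 0.716 CPM and Lamb3 from 81.5 ± 4.61 to 125 ± 5.44 CPM. Its receptor subunit Itgb4 rose from 254 ± 9.32 to 391 ± 10.7 CPM. Lama5 rose from 71 ± 10.7 to 138 ± 14.8 CPM. Itgb7, the integrin subunit best known from gut-homing lymphocytes, had 1.24, 0.976, 1.13 and 0.983 CPM in DMSO and 5.40, 5.39, 5.27 and 4.68 CPM in 4OHT (log2 2.26 ± 0.10). Col18a1, the collagen that releases endostatin, rose from 1.76 ± 0.0565 to 7.39 ± 0.291 CPM. Against these, the basement membrane collagen IV genes Col4a1 and Col4a2 fell by 0.94 and 0.96 on the log2 scale, both at a mean below 1 CPM. The fall of Col4a1 did not pass without 4OHT replicate 4 (edgeR adjusted p = 0.0553).

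Of 38 secreted and membrane proteases and their inhibitors, 17 rose and 7 fell (median 0.22). The plasminogen activator system rose together: Plau from 1.14 ± 0.0862 to 5.68 ± 0.964 CPM, its receptor Plaur from 50.3 ± 6.89 to 105 ± 11.1 CPM, and Plat from 15.6 ± 2.22 to 31.7 ± 5.15 CPM. Cathepsin E (Ctse), a protease of gastric surface cells, rose from 0.456 ± 0.0605 to 2.81 ± 0.305 CPM, and the metalloprotease inhibitor Timp2 rose from 6.83 ± 0.616 to 18.4 ± 3.29 CPM. Prss12, the serine protease neurotrypsin, fell from 12.5 ± 0.797 to 5.64 ± 0.287 CPM. Of 12 S100 calcium-binding genes 7 rose and 2 fell (median 0.48). S100a6, S100a11 and S100a14 rose from 592 ± 29.8 to 966 ± 39.8, from 300 ± 20.3 to 498 ± 27.5 and from 94.6 ± 4.29 to 184 ± 10.5 CPM. The exception in direction was S100g, the vitamin D regulated calbindin of enterocytes, which fell from 5.21 ± 1.56 to 2.79 ± 0.273 CPM. The other fall, S100b, was below 1 CPM.

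Guidance molecules are ligands and receptors that steer axons and also act in epithelia. Of 46 ephrins, semaphorins, netrins and receptors, 21 rose and 7 fell (median 0.19). The ephrin receptor gene Epha2 rose from 80.7 ± 12 to 164 ± 20.8 CPM, the secreted semaphorin gene Sema3c from 25.2 ± 4.34 to 49.8 ± 5.81 CPM and Slit2 from 29.2 ± 2.33 to 51.3 ± 5.71 CPM. The ligand gene Efna4 fell from 13.5 ± 1.38 to 8.39 ± 0.511 CPM.

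Of 50 glycan synthesis enzymes, 21 rose and 11 fell (median 0.10). Fut2, which makes the H antigen of gut mucus, had 23.4, 26.5, 24.1 and 24.7 CPM in DMSO and 94.0, 86.8, 96.0 and 112 CPM in 4OHT (log2 1.98 ± 0.08, edgeR adjusted p = 1.3e-08). The branching enzymes Gcnt1 and Gcnt3 rose from 14.1 ± 1.45 to 33.7 ± 3.58 and from 213 ± 7.26 to 332 ± 16.9 CPM, and the sulfotransferase gene Chst4 rose from 30.5 ± 0.905 to 47.1 ± 0.979 CPM. The sialyltransferase gene St6galnac2 fell from 84 ± 4.98 to 54.3 ± 5.09 CPM. Of 10 mucins and trefoil factors 4 rose and 1 fell (median 0.19). Besides Tff1 they were Tff2, which rose from 0.35 ± 0.0592 to 1.64 ± 0.212 CPM, Muc2 and Tff3, and the fall was Muc13, from 711 ± 26.7 to 566 ± 50.4 CPM. Muc2, the main goblet mucin, did not pass in the fit over all 16 libraries (edgeR adjusted p = 0.183). When single libraries were left out, the rise of Tff3 passed only without DMSO replicate 1.

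**Figure D3:**
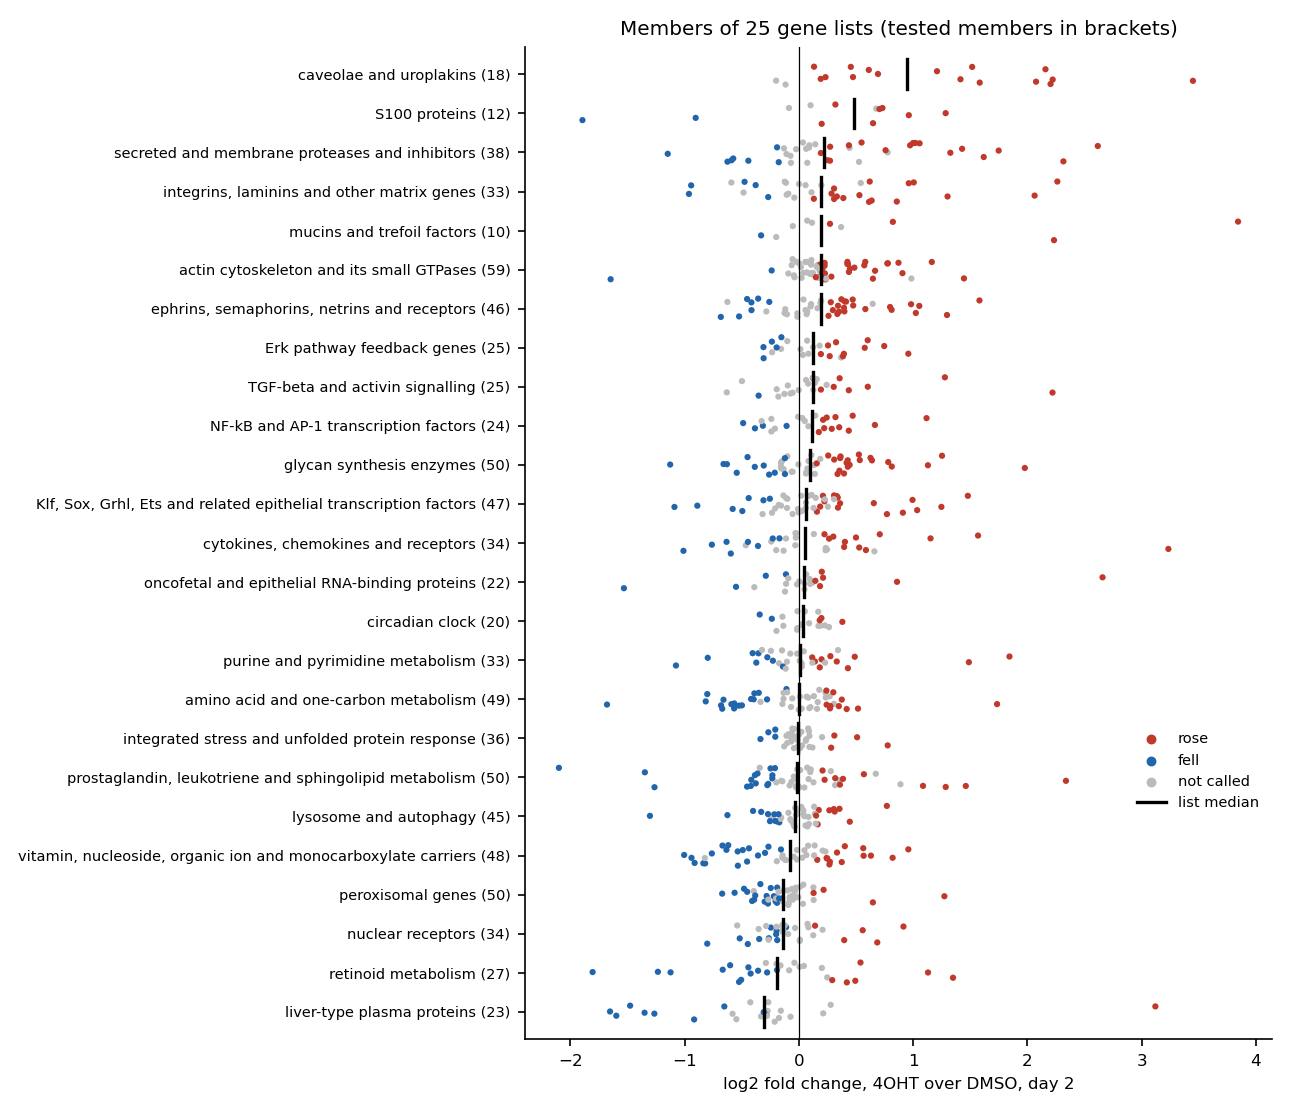
Each point is a tested member of a list, placed by its log2 fold change of 4OHT over DMSO at day 2, and lists are ordered by their median (black bar). Red members rose, blue members fell and grey members were not called. The median is highest for caveolae and uroplakins (0.95) and lowest for liver-type plasma proteins (-0.31).

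Retinoid genes moved in both directions. Retinoids are stored as esters and oxidised to retinoic acid, which then is broken down. Of 27 retinoid genes 6 rose and 12 fell (median -0.19), and 7 fell without DMSO replicate 1. Lrat, which esterifies retinol for storage, had 4.05, 3.60, 4.14 and 3.80 CPM in DMSO and 1.18, 1.42, 0.989 and 0.871 CPM in 4OHT (log2 -1.81 ± 0.13, edgeR adjusted p = 1.63e-06). The retinol-binding gene Rbp7 and the retinol dehydrogenase gene Rdh7 fell from 2.64 ± 0.445 to 1.12 ± 0.0893 and from 30.8 ± 5.82 to 14.1 ± 2.6 CPM. Both directions occurred among enzymes that oxidise retinol, where Rdh10 rose from 78 ± 9.29 to 110 ± 10.1 CPM. They also occurred among enzymes that make retinoic acid: the abundant Aldh1a1 fell from 1018 ± 56.3 to 795 ± 151 CPM, with overlap between the groups, and Aldh1a3 rose from 1.59 ± 0.156 to 4.05 ± 0.523 CPM. The Aldh1a1 call (edgeR adjusted p = 0.0267) was lost when any single library was left out other than 4OHT replicate 2 or DMSO replicate 4, with edgeR adjusted p from 0.052 to 0.12. Cyp26b1, which degrades retinoic acid, rose from 5.76 ± 0.653 to 12.6 ± 2.1 CPM, and the retinoic acid receptor gene Rarg rose from 23.6 ± 0.733 to 44.6 ± 2.26 CPM.

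Amino acid and one-carbon metabolism showed falls in the mitochondrial path from glutamine to citrulline. Of 49 genes 10 rose and 17 fell (median -0.001), and the summed level was 5369 to 5546 CPM in DMSO and 4162 to 4322 CPM in 4OHT, with no overlap. Beside Cps1, the ornithine carbamoyltransferase gene Otc fell from 93.9 ± 10.9 to 53.4 ± 7.96 CPM, Oat, which makes ornithine from glutamate semialdehyde, from 729 ± 72.1 to 455 ± 44.6 CPM, and Nags, whose product activates CPS1, from 50.2 ± 5.1 to 31.5 ± 4.95 CPM. The glutaminase gene Gls2 fell from 12 ± 0.339 to 7.6 ± 0.487 CPM, the cystathionine lyase gene Cth from 76.2 ± 6.88 to 43.7 ± 5.45 CPM and the serine hydroxymethyltransferase gene Shmt1 from 124 ± 4.83 to 87.7 ± 2.13 CPM. The largest rise was Gldc of the glycine cleavage system, which stayed below 1 CPM.

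Plasma proteins that the liver secretes are a known HNF4A programme, and 23 of 53 listed passed the filter. Of these 9 fell and 1 rose (median -0.31), but 12 of the 23 had a mean below 1 CPM. Ttr, the thyroxine carrier, fell from 7.78 ± 1.5 to 2.47 ± 0.313 CPM. The complement regulator gene Cfi fell from 2.83 ± 0.265 to 1.01 ± 0.0653 CPM and the antiplasmin gene Serpinf2 from 2.43 ± 0.355 to 1.01 ± 0.225 CPM. The rise was complement gene Hc, at 0.267 ± 0.0943 CPM in 4OHT. That gene leaves the test with a minimum of 1 CPM in 4 libraries.

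Among peroxisomal genes, which oxidise very long and branched fatty acids and build ether lipids, falls were small. Of 50 tested 19 fell and 4 rose (median -0.14). Phyh, of phytanic acid oxidation, fell from 39.1 ± 3.03 to 26.5 ± 3.11 CPM, and Acaa1b, a thiolase, from 40.3 ± 6.78 to 25.3 ± 3.48 CPM. The rises were Far1, Agps, Pex26 and Prdx5, and that of Prdx5 (log2 0.13 ± 0.05, edgeR adjusted p = 0.0475) was lost when any single library other than DMSO replicate 1 was left out. Far1, the fatty acyl-CoA reductase that sets plasmalogen synthesis, had 50.1, 56.4, 63.3 and 71.6 CPM in DMSO and 140, 127, 157 and 161 CPM in 4OHT (log2 1.27 ± 0.10, edgeR adjusted p = 3.4e-06). Agps, the next alkyl-transferring enzyme, rose from 111 ± 18.6 to 175 ± 14.6 CPM, while Gnpat, which starts ether lipid synthesis, was not called (log2 -0.02 ± 0.04).

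Of 50 genes of prostaglandin, leukotriene and sphingolipid metabolism 10 rose and 15 fell (median -0.02). The small subunits of serine palmitoyltransferase, the first enzyme of sphingolipid synthesis, moved in opposite directions. Sptssb rose from 43.1 ± 2.27 to 119 ± 6.88 CPM and Sptssa fell from 121 ± 5.05 to 88.5 ± 4.52 CPM. The ceramide synthase gene Cers3, known from the skin barrier, rose from 0.369 ± 0.0469 to 1.86 ± 0.319 CPM, and the cyclooxygenase gene Ptgs2 rose from 0.445 ± 0.073 to 1.1 ± 0.241 CPM. The secreted phospholipase gene Pla2g5 fell from 6.62 ± 1.36 to 2.59 ± 0.529 CPM.

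Carriers for vitamins, nucleosides, organic ions and monocarboxylates were moved in both directions, with 13 of 48 risen and 18 fallen (median -0.08). The creatine transporter gene Slc16a12 fell from 31.7 ± 2.81 to 17.8 ± 1.48 CPM, the ergothioneine and carnitine carrier gene Slc22a4 from 8.34 ± 0.94 to 4.43 ± 0.711 CPM and the nucleoside carrier gene Slc29a1 from 76.5 ± 3.28 to 52.8 ± 1.67 CPM. The sulfate carrier gene Slc26a2 rose from 210 ± 31.7 to 371 ± 15.7 CPM. Slc10a2, the bile acid carrier that is normally highest in ileum, rose from 3.57 ± 0.611 to 6.95 ± 1.03 CPM. Of 33 genes of purine and pyrimidine metabolism 10 rose and 8 fell (median 0.01). Dpyd, the first step of uracil breakdown, fell from 51.8 ± 6.73 to 29.8 ± 4.22 CPM, and the ectonucleotidase gene Entpd3 rose from 1.02 ± 0.207 to 3.67 ± 1.06 CPM.

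Among 34 nuclear receptors, the family of HNF4A, 5 rose and 10 fell (median -0.14), and 16 fell without DMSO replicate 4. Pparg, a lipid sensor, rose from 45.8 ± 1.87 to 73.8 ± 3.74 CPM and Ppard from 110 ± 2.56 to 145 ± 3.27 CPM. The vitamin D receptor gene Vdr fell from 503 ± 36.8 to 369 ± 55.6 CPM, and the oestrogen-related receptor gene Esrrg fell from 4.01 ± 0.656 to 2.3 ± 0.315 CPM. Among 47 Klf, Sox, Grhl, Ets and related epithelial factors 16 rose and 7 fell (median 0.06). The grainyhead genes Grhl1 and Grhl3, regulators of barrier epithelia, rose from 2.94 ± 0.241 to 6.98 ± 0.94 and from 6.1 ± 1.04 to 12.5 ± 2.23 CPM. Runx1 rose from 13.6 ± 1.33 to 21.4 ± 1.4 CPM. The homeobox gene Barx2 fell from 11 ± 0.935 to 5.18 ± 0.377 CPM, Sox4 from 147 ± 10.1 to 98.7 ± 4.62 CPM and Sox9 from 71.1 ± 5.43 to 52.5 ± 1.33 CPM.

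Of 24 NF-kB and AP-1 genes 11 rose and 4 fell (median 0.11). Within AP-1 the partners differed: Fosl1 rose from 3.2 ± 0.6 to 6.96 ± 0.995 CPM, Fos from 21.7 ± 2.01 to 34.5 ± 5.09 CPM and Junb from 76.1 ± 4.46 to 105 ± 2.99 CPM, while Jun fell from 21.9 ± 2.21 to 15.6 ± 1.11 CPM. NF-kB genes moved in both directions as well. Relb and Nfkbia, the latter an inhibitor and target, fell by 0.38 and 0.31 on the log2 scale, and Rel, Tnfaip3, Bcl3 and Nfkb2 rose by 0.35, 0.29, 0.21 and 0.17. The Rel call was lost without 4OHT replicate 3 or DMSO replicate 2, and the Nfkb2 call without 4OHT replicate 3 or in the fit over 16 libraries. Of 34 cytokines, chemokines and receptors 12 rose and 8 fell (median 0.05). Besides Il1r1, its antagonist Il1rn rose from 66.9 ± 10.6 to 198 ± 19.3 CPM. The alarmin gene Il33 rose from 9.15 ± 1.53 to 14.9 ± 1.88 CPM and the interleukin-17 receptor gene Il17re from 10.7 ± 1.18 to 23.7 ± 2.71 CPM. The chemokine genes Ccl28 and Ccl25, which draw lymphocytes to mucosa, fell from 59.3 ± 2.4 to 35 ± 3.83 and from 262 ± 30.4 to 169 ± 31.9 CPM.

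Of 25 Erk feedback genes 10 rose and 5 fell (median 0.12). Ier3 rose from 9.32 ± 0.966 to 18.1 ± 0.672 CPM, Egr1 from 23.8 ± 2.53 to 40 ± 3.56 CPM and the Erk phosphatase gene Dusp6 from 56.7 ± 2.54 to 86 ± 6.21 CPM. Of 25 genes of TGF-beta and activin signalling 8 rose and 1 fell (median 0.12), and 2 fell without DMSO replicate 3. Ltbp4 and Ltbp3, which hold latent TGF-beta in the matrix, rose from 0.927 ± 0.128 to 4.33 ± 0.502 and from 0.774 ± 0.0544 to 1.88 ± 0.305 CPM. Pmepa1, a feedback target of the pathway, rose from 22 ± 2.37 to 33.4 ± 3.44 CPM. Of 22 RNA-binding proteins 6 rose and 4 fell (median 0.05), and 3 rose when 4OHT replicate 1, 3 or 4 was left out. Opposite to Msi1, the oncofetal gene Igf2bp1 rose from 0.351 ± 0.0687 to 2.22 ± 0.474 CPM. Rbms1 rose from 6.48 ± 1.29 to 11.8 ± 1.69 CPM.

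Stress, clock and lysosome genes were counted next. Of 36 genes of the integrated stress and unfolded protein responses 4 rose and 4 fell (median -0.01), and 7 fell without DMSO replicate 4. Atf4, the central factor of the stress response, had a log2 fold change of -0.05 ± 0.04 and overlapped between the groups. Of 20 circadian clock genes 3 rose and 2 fell (median 0.04). The rises numbered 1 without 4OHT replicate 1 or DMSO replicate 2, and the falls numbered 1 without 4OHT replicate 2, 4OHT replicate 3, DMSO replicate 1 or DMSO replicate 2. Of 45 lysosome and autophagy genes 9 rose and 11 fell (median -0.03), and 5 rose without 4OHT replicate 4. The ion channel gene Mcoln2 stood out among them, from 9.95 ± 0.328 to 4.03 ± 0.367 CPM.

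Genes that share a symbol stem were counted over the 211 stems with at least 8 tested genes, as a description made after the values were seen. In 20 stems at least 50% of the genes rose, and in 12 at least 50% fell. The annexins, which bind membranes in a calcium-dependent way, had 10 of 12 risen and none fallen (median 0.62), among them Anxa3 from 117 ± 10.4 to 246 ± 24.7 CPM and Anxa10 from 131 ± 10.7 to 233 ± 16.7 CPM. Of 10 Rgs genes, brakes on G protein signalling, 8 rose, with Rgs2 from 8.8 ± 0.809 to 18.8 ± 0.869 CPM. Of 9 Samd genes 7 rose, with Samd5 from 9.59 ± 2.61 to 23.3 ± 3.4 CPM. The calcium protease stem Capn had 6 of 11 and the membrane traffic stem Syt 6 of 10 genes risen. The highest share of falls was that of the Defa defensins, antimicrobial peptides of Paneth cells, with 8 of 9 fallen (median -0.49). Of 22 Cox genes 14 fell and none rose, with a median of only -0.20, and of the Ndufa, Ndufb and Ndufs subunits 7 of 13, 7 of 10 and 6 of 8 fell. The Ces esterases had 9 of 14 fallen, the Ugt glucuronosyltransferases 7 of 13, the Hsd steroid dehydrogenases 7 of 13 and the Coq genes of ubiquinone synthesis 5 of 9. The Dhrs dehydrogenases had 5 of 9 fallen, and the Haus and Vwa stems 4 of 8 each. Members of the Defa, Ces and Ugt stems are close copies whose reads the counting may have split.

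Called genes also sat side by side on chromosomes. Over 15829 tested genes with coordinates, 25 runs of at least 5 adjacent tested genes shared a direction, 16 of rises with 95 genes and 9 of falls with 52 genes. Runs were found after the calls and carry no test, and overlapping or duplicated genes in them may share reads. The trefoil factor run spans chr17:31057675-31350739 and holds 8 genes, all risen: Abcg1, Tff3, Tff2, Gm15318, Tff1, Tmprss3, Rsph1 and Slc37a1. Their log2 fold changes peak at Tff1 (3.84) and are 1.30 ± 0.17 at Abcg1 and 0.11 ± 0.04 at Slc37a1, the ends of the run. When single libraries were left out, the calls of Tff3 and Slc37a1 held only without DMSO replicate 1. That of Rsph1 held only without 4OHT replicate 3 or DMSO replicate 3. The other genes of the run are Abcg1, Tff2, Gm15318, Tff1 and Tmprss3. They are not all adjacent, since Tff3 lies between Abcg1 and Tff2. A run at chr7:45554893-45694556 holds Hsd17b14, Bcat2, Fut1, Izumo1, Rasip1, Fut2 and Ntn5. Rasip1, a regulator of vessel formation, rose from 0.636 ± 0.0968 to 2.86 ± 0.385 CPM there and Hsd17b14 from 3.12 ± 0.62 to 10.4 ± 1.19 CPM. The keratin run at chr15:101707070-102032027 holds Krt5, Krt4, Krt79, Krt78, Krt8 and Krt18, and the run from Psca to Ly6d lies at chr15:74714839-74800640.

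Of the 9 runs of falls, those of the Cyp2c and Ces1 families are described here. The Cyp2c run at chr19:39113898-40187333 holds 7 genes, among them Cyp2c66, which fell from 176 ± 4.04 to 114 ± 19.2 CPM, and Cyp2c29, from 124 ± 23.4 to 81.1 ± 12.2 CPM. The Ces1 run at chr8:93056728-93337308 holds Ces1b, Ces1c, Ces1d, Ces1e, Ces1f and Ces1g, where Ces1b fell most, from 4.59 ± 0.389 to 1.81 ± 0.468 CPM. The neighbour of Ces1b on the other side, Lpcat2, rose by 1.87 ± 0.25 on the log2 scale, so the direction turned at the edge of the family.

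**Figure D4:**
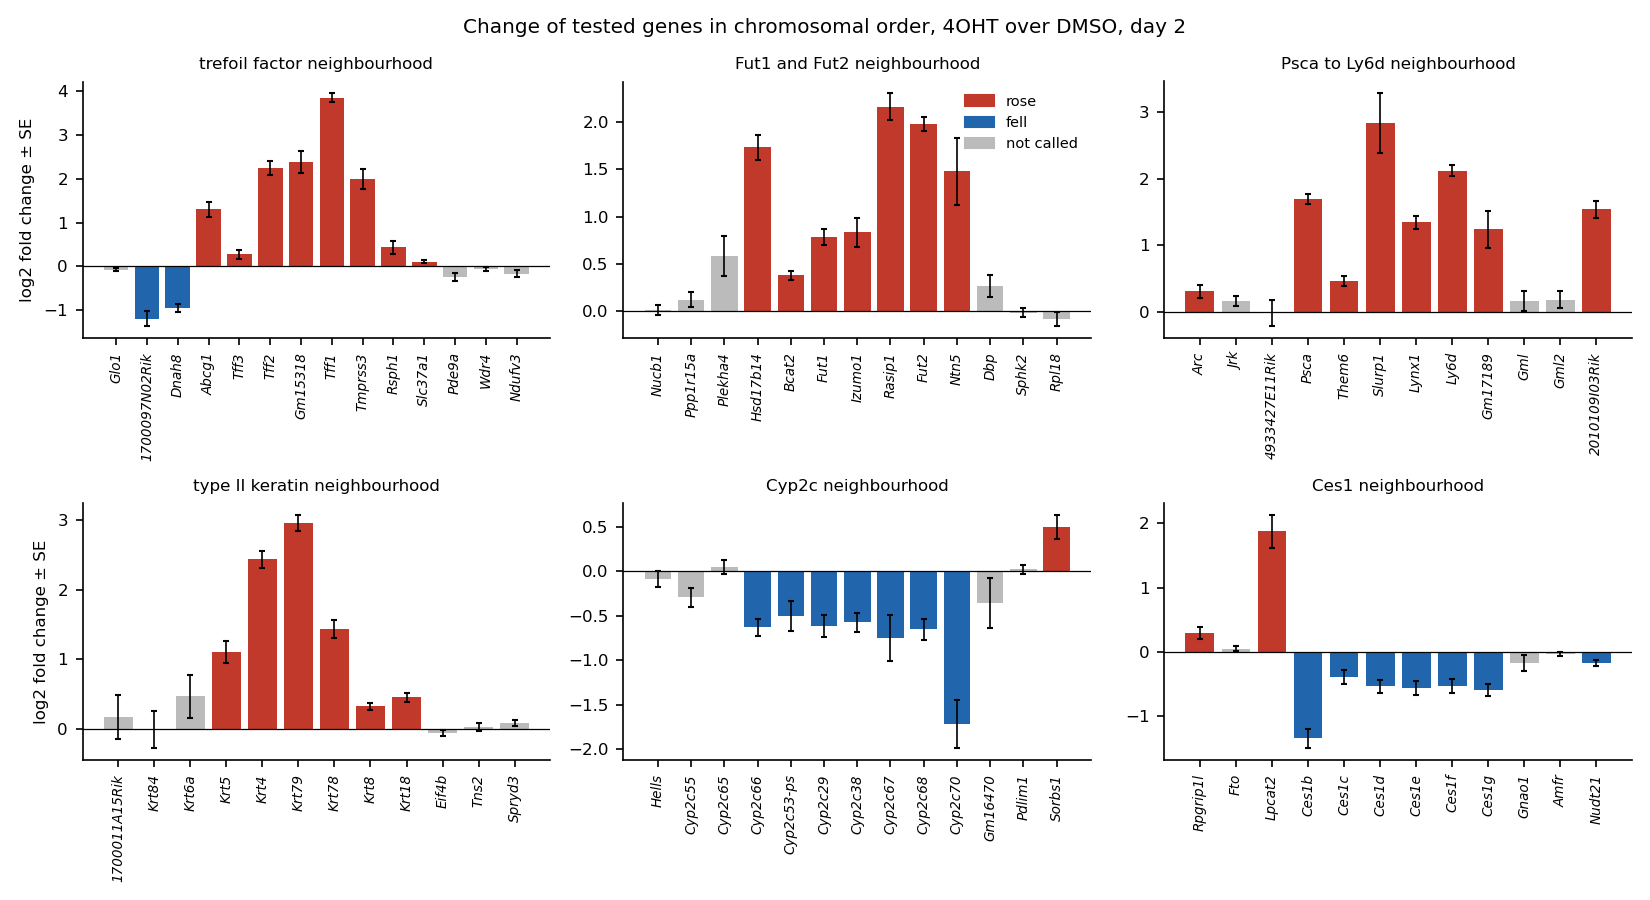
Bars are log2 fold changes with SE of tested genes in chromosomal order around 6 runs, with the genes on either side of each run. Red bars rose, blue bars fell and grey bars were not called. In the trefoil factor panel the change is largest at Tff1 (3.84), and it is lower at Tff3 (0.27) than at Abcg1 (1.30), the end of the run beside it. In the Ces1 panel 6 fallen genes stand beside the risen Lpcat2.

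Marker lists gave the levels of other epithelial cell types beside these changes. Of 11 absorptive enterocyte markers 8 fell and none rose (median -0.52), and 3 fell without DMSO replicate 1, while 1 rose without 4OHT replicate 4. Their summed level was 6299 to 8311 CPM in DMSO and 4312 to 6254 CPM in 4OHT, so the groups nearly touch. Of 9 goblet markers 6 rose and none fell (median 0.60), and their sum went from 4860 to 5589 CPM in DMSO to 7332 to 9449 CPM in 4OHT. The mean of Fcgbp alone rose by 1573 CPM. Among the rises, Muc2 did not pass in the fit over all 16 libraries (edgeR adjusted p = 0.183). With single libraries left out, Tff3 passed only without DMSO replicate 1. Of 9 Paneth markers 5 fell (median -0.41), from a sum of 1940 to 2477 CPM to one of 1590 to 1754 CPM. Of 7 crypt base stem cell markers 6 fell (median -0.58), from a sum of 1532 to 1818 CPM to one of 999 to 1123 CPM, with Olfm4 from 699 ± 41.9 to 363 ± 18.1 CPM. Of 9 enteroendocrine markers 2 fell, with sums of 278 to 309 and 272 to 300 CPM. The falls numbered 1 without 4OHT replicate 1, 4OHT replicate 4, DMSO replicate 1, DMSO replicate 2 or DMSO replicate 3. None of 5 tuft markers was called, with sums of 6.84 to 8.9 and 7.18 to 10.1 CPM. The part of such shifts in the other results was not tested.

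Markers of cells outside the epithelium were scarce. Only 3 of 9 fibroblast markers passed the filter, with sums of 8.02 to 9.22 CPM in DMSO and 7.92 to 8.91 CPM in 4OHT. Of these Col1a1 rose from 0.105 ± 0.022 to 0.215 ± 0.0172 CPM, below the stricter minimum of 1 CPM, and the other 2 were not called. Of 9 blood and immune markers only Cd68 passed, at 2.85 ± 0.236 and 3.75 ± 0.358 CPM, and its rise did not pass in the fit over 16 libraries (edgeR adjusted p = 0.168). The 4 endothelial, neural and glial markers that passed summed to 2.08 to 2.44 CPM in DMSO and 1.51 to 1.67 CPM in 4OHT, and 3 of them fell, among them S100b and Tubb3. The 3 were not tested under the stricter minimum, and the Tubb3 call was lost without 4OHT replicate 1 or DMSO replicate 2. Of 14 muscle markers 3 passed and moved apart: Acta1 fell, the fast troponin gene Tnni2 rose from 7.53 ± 1.2 to 18.5 ± 0.657 CPM, and Mylpf fell from 3.1 ± 0.272 to 2.43 ± 0.144 CPM. Ly6g and Itgb7, which rose, are known from blood cells, and the part of blood cells in their rise was not tested.

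Day 2 was last set beside day 4, which has its own DMSO libraries, in a fit over all 16 libraries. In that fit 1533 genes rose on both days, 66.1% of the 2320 that rose at day 2 and 57.9% of the 2648 that rose at day 4. Falls were shared by 1055 genes, 49.2% of 2145 at day 2 and 47.8% of 2208 at day 4. Of the day 2 calls, 11 rises and 23 falls were called in the opposite direction at day 4. Day 4 libraries with the same replicate number deviated together, with correlations of 0.64 to 0.81. When the replicate number within each day entered the model as a block, 2022 rises and 1551 falls were shared by both days. In that fit 51 rises and 119 falls of day 2 were called in the opposite direction at day 4. The block also tied day 2 libraries of the same number, whose deviations correlated by only -0.11 to 0.49. The test of the difference between the effects called 278 of 16597 genes (1.68%), with 79 effects higher at day 2 (0.476%) and 199 lower (1.2%). With the replicate block the counts were 680 and 1170, and with DESeq2 they were 247 and 600. Without the block the counts ranged from 28 to 225 and from 66 to 502 when 1 library was left out. The lowest came without 4OHT day 2 replicate 3 and the highest without DMSO day 2 replicate 4, and leaving out any library other than 4OHT day 4 replicate 1 moved at least 1 of the counts by more than 1.5 times. Nox1, an oxidase that makes superoxide in colon, turned direction. It fell from 54.7 ± 3.36 to 40.9 ± 4.11 CPM at day 2, and at day 4 it rose from 21.5 ± 3.49 to 43.9 ± 2.79 CPM, a difference of effects of -1.45 ± 0.13 (edgeR adjusted p = 6.83e-05). Rgs12 did the reverse, rising from 7.14 ± 0.523 to 9.46 ± 1.17 CPM at day 2, and at day 4 falling from 14.5 ± 1.15 to 10.1 ± 0.417 CPM (difference 0.92 ± 0.12, edgeR adjusted p = 0.000742). Reg3g, an antibacterial lectin, had 402 ± 77.9 and 391 ± 18.8 CPM in 4OHT at day 2 and day 4. Its controls stood at 297 ± 64.2 CPM at day 2 and 81.7 ± 9.36 CPM at day 4, so the difference of -1.82 ± 0.21 lay mostly in the DMSO libraries. The growth factor receptor gene Fgfr4 had 21.2 ± 1.5 CPM in DMSO and 22.4 ± 0.938 CPM in 4OHT at day 2, and 21.1 ± 3.03 and 10.9 ± 1.07 CPM at day 4 (difference 1.04 ± 0.13). The cell cycle kinase gene Cdk6 rose at day 2 from 85 ± 10.8 to 134 ± 8.34 CPM, and at day 4 it had 119 ± 5.58 CPM in DMSO and 110 ± 9.69 CPM in 4OHT (difference 0.77 ± 0.11, edgeR adjusted p = 0.00194).

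**Figure D5:**
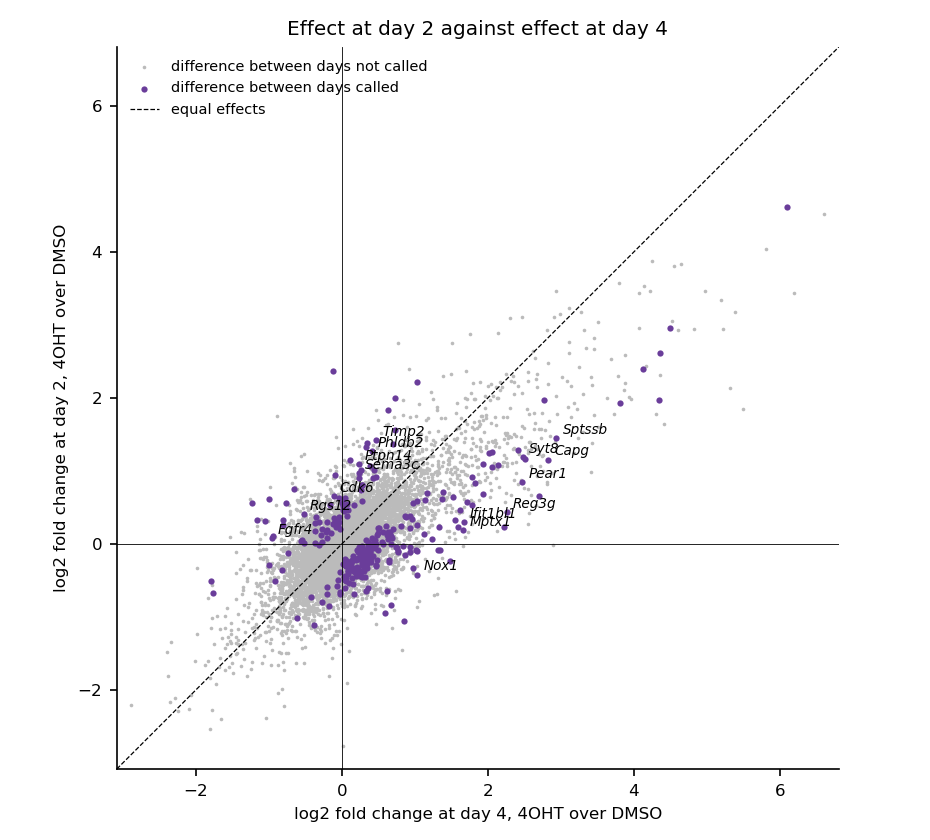
Each point is a gene of the fit over 16 libraries, with its log2 fold change at day 4 on the x axis and at day 2 on the y axis. The dashed line marks equal effects, and purple points are the 278 genes whose effects differed between days with an adjusted p below 0.05. Nox1 and Rgs12 lie on opposite sides of 0 on the 2 days, and Reg3g lies far to the right of the line.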

How the data were processed

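RNA was sequenced from organoid libraries made by poly(A) selection with a directional kit, per the labels' protocols. STAR 2.4.0f1, bcl2fastq 1.8.4 and the build GRCm38 are named in the submitters' processing notes. Which program counted the reads, and with which annotation and strand option, is not given in the sources used here. The deposited day 2 table held raw read counts per gene, per the file headers, for 20790 genes, the lowest of which summed to 10 counts over its libraries. It also held the authors' normalized values, a score whose scaling is not stated and which was not used, and the authors' deposited log2 fold changes and p-values. Of the calls made here, 4555 (92%) were also called, in the same direction, by edgeR in the authors' deposited table.

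Counts were scaled by TMM, filtered by filterByExpr and fitted with edgeR 4.0.16 (R 4.3.3, limma 3.58.1) as a robust quasi-likelihood model of 4OHT against DMSO over the 8 day 2 libraries. The p-values were adjusted by Benjamini-Hochberg over all 15897 genes, and an adjusted p below 0.05 was a call. The difference between days was the interaction in a fit over 16 libraries and 16597 genes. On simulated counts with 50 genes changed at each fold, 44%, 76%, 88% and 98% of genes changed 1.25-, 1.5-, 2- and 4-fold were recovered at day 2, with 5 false among 158 calls. For the difference between days the shares were 12%, 46%, 76% and 96%. Far fewer genes were changed in the simulation than were called at day 2, and its libraries were not paired. These shares therefore need not hold in the data. Alternatives were DESeq2 1.42.0, DESeq2 size factors, other filters on low counts, a replicate block, a fit over 16 libraries and leaving out each library. No sample was dropped. Among day 2 libraries of the same group, none was a copy of another (chi-square per degree of freedom 7.99 or more). Day 4 libraries and pairs across groups were not compared. Deviations of same-numbered libraries from their group means correlated by 0.64 to 0.81 at day 4, where the numbers pair the libraries, and by -0.11 to 0.49 at day 2, where they do not. This pairing comes from the data, not from the labels. The block within the overlap of the days was added after seeing the data.

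Genes named were Hnf4a, the 12 largest rises and falls at a mean log2 CPM of at least 3, the 5 largest at 0 to 3, the 8 largest gains and losses in CPM, the 5 smallest p in each direction, the 8 largest differences between days in each direction, and, for each list, called members past 0.5 on the log2 scale and the highest members. Predicted genes and genes that overlap another were left out of the ranks, and some genes that met the rule are not reported here. Other names were chosen after their values were seen. The genes, the 25 lists and the 10 marker lists were chosen with earlier results of these data known.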

Additional observations from a re-analysis of the deposited data

Results flagged for a closer look

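Within groups of 4 libraries, 1 library stood far from the other 3 for 9 of 428 gene and group pairs by Dixon's criterion, and chance alone gives about 1 in 20. Aldh1a3 had 4.83 CPM in 4OHT replicate 3 against 3.70 to 3.86 CPM in the other 4OHT libraries. Ces1d had 13 CPM in 4OHT replicate 3 against 17.7 to 18.4 CPM. In DMSO replicate 4, Col4a1 had 1.47 CPM against 0.709 to 0.832 CPM, Pigr had 1900 CPM against 2236 to 2269 CPM, and Plat had 18.9 CPM against 14.2 to 14.8 CPM. In DMSO replicate 3, Ptgs2 had 0.337 CPM against 0.467 to 0.492 CPM and Sox9 had 63 CPM against 73.4 to 74.7 CPM. Shmt1 had 90.9 CPM in 4OHT replicate 4 against 86.3 to 86.8 CPM, and Hc had 0.0126 CPM in DMSO replicate 1 against 0.0318 to 0.0355 CPM.

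The effect of 4OHT differed between day 2 and day 4 by edgeR's interaction test for 15 genes named by rule. The effect was higher at day 2, on the log2 scale, by 1.04 for Fgfr4, 0.95 for Timp2, 0.92 for Rgs12, 0.86 for Ptpn14, 0.86 for Phldb2, 0.77 for Cdk6 and 0.74 for Sema3c. At the other end the difference was -1.82 for Reg3g, -1.67 for Capg, -1.62 for Pear1, -1.49 for Sptssb, -1.48 for Mptx1, -1.45 for Nox1, -1.37 for Ifit1bl1 and -1.28 for Syt8. Pear1, for example, rose from 21.2 ± 1.64 to 38.2 ± 2.03 CPM at day 2, and at day 4 it rose from 2.45 ± 0.612 to 13.6 ± 2.1 CPM. Of the 15, 5 lost their call when single libraries were left out, and none changed direction. These were Phldb2, Ptpn14, Sema3c, Capg and Sptssb, each without 4OHT day 2 replicate 3 or 4, 4OHT day 4 replicate 3, DMSO day 2 replicate 1, 2 or 3, or DMSO day 4 replicate 1 or 3. DMSO day 4 replicate 4 ended those of Phldb2, Ptpn14 and Sema3c, DMSO day 4 replicate 2 those of Ptpn14, Sema3c, Capg and Sptssb, and 4OHT day 2 replicate 1 those of Ptpn14, Capg and Sptssb. Capg also lost its call with no filter on low counts.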

How the results depend on the processing

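At day 2, 2046 to 2604 genes rose and 1660 to 2547 fell when 1 library was left out, and DESeq2 called 2730 and 2465. Of the 4950 calls, 74.4% (without 4OHT replicate 3) to 99% (DESeq2 size factors) were shared with an alternative. With a minimum of 1 CPM in 4 libraries, 249 genes rose and 60 fell at least 2-fold, since fewer low genes were tested. The median of all genes moved by less than 0.1 under each scaling. For 214 genes named in the text, 2903 of 2980 values kept their call and direction, 75 lost the call, 2 gained it and none changed direction.

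Deviations of same-numbered day 2 libraries correlated by -0.11, 0.14, -0.05 and 0.49, and not every library correlated best with its own number, so at day 2 they share only a number. At day 4 the correlations were 0.71, 0.81, 0.64 and 0.70, and every library correlated best with its own number. A replicate block in the day 2 model gave 2680 rises and 2236 falls. For the difference between days the block gave 680 effects higher and 1170 lower at day 2, against 79 and 199 without it, and DESeq2 gave 247 and 600. Leaving out 1 library gave 28 to 225 higher and 66 to 502 lower. The cause of these moves was not tested. The depth of 63.8 M to 93.3 M counts limits mainly the genes near or below 1 CPM.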
